A study of Homo sapiens with 4 samples.

Results

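The genes described here encode the machinery that brings new proteins to the endoplasmic reticulum (ER), moves them across or into its membrane and removes their signal peptides. The 41 members were fixed by symbol in 6 known complexes or routes: the signal recognition particle (SRP) with its receptor, the SEC61 channel, the proteins that sit beside the channel, signal peptidase, the ER membrane protein complex (EMC) and the GET pathway for tail-anchored proteins. Of the 41 members, 40 had an array probe set that named no other gene, out of 19775 such genes in all. SEC61G, the small gamma subunit of the channel, had none and was not analysed here.

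The cells were MCF10A, an immortal but non-tumorigenic line of human mammary epithelium, and their total RNA was measured on 4 arrays of the type Affymetrix U133 Plus 2.0. On the control arrays (n = 2) were cells that expressed a control short hairpin RNA (shRNA). On the other arrays (n = 2) were cells that expressed shRNAs directed at Cbl and Cbl-b, ubiquitin ligases that send activated receptor tyrosine kinases to breakdown. All cells were grown in DFCI-1 medium and harvested without further treatment. The question was how the members' transcripts differed between these groups. Whether the arrays of 1 group stem from separate cultures is not stated in the labels, and the p-values cover the spread between these arrays alone, which may be technical.

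A secreted or membrane protein usually carries a hydrophobic signal that SRP binds as it leaves the ribosome. SRP then docks at its receptor on the ER, and the chain passes to the SEC61 channel, where signal peptidase cuts off the signal peptide on the lumenal side. Membrane segments that SEC61 handles poorly are inserted by the EMC, and proteins anchored by their last segment are delivered after synthesis by the GET pathway. When unfolded proteins collect in the ER, the transcription factors XBP1 and ATF6 are known to induce genes of this machinery together with ER chaperones.

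The arrays were comparable in scale, with medians of 14.5 to 14.7 over all probe sets, and no 2 arrays held identical values. CBL fell on its brightest probe set, from intensities of 125.9 and 84.4 on the control arrays to 31.1 and 29.0 on the other arrays (log2 change -1.37 ± 0.15 SE, n = 2 per group, limma adjusted p = 0.00139). The next brightest CBL probe sets, with means of 33.8 and 25.9, had smaller log2 changes of -0.33 and -0.20 (unadjusted p = 0.0326 and 0.0535 by limma). CBLB went against its label and rose, from 64.3 and 70.05 to 94.8 and 99.5 (log2 change 0.45 ± 0.09 SE, limma adjusted p = 0.0148). The second group is therefore called the arrays labelled double knockdown. Of 9 markers of the epithelial line 7 had a probe set of their own, and all 7 reached the brightness minimum used for the test. Of the leukocyte markers, PTPRC and LYZ did not reach it, and CD14 and CD3E did. Of the endothelial markers, CDH5, KDR and VWF did not, and PECAM1 did. COL1A1, COL1A2 and DCN of 5 fibroblast genes and PLIN1 of 2 fat cell genes also reached it. The epithelial list had a summed intensity of 28339 to 28464 on the control arrays and 17175 to 17670 on the arrays labelled double knockdown, where KRT14 and KRT5 fell, EPCAM and KRT18 rose, and CDH1, ITGA6 and EGFR were not called. The leukocyte list, 4 genes with a probe set, summed to 256 to 262 and 1004 to 1103, a gap that lay mainly in CD14, which rose. The endothelial list summed to 56.1 to 57.0 and 49.3 to 52.3. The fibroblast list, in which DCN fell, summed to 305 to 311 and 233 to 234. The fat cell list summed to 19.6 to 19.9 and 19.4 to 21.3. The part of these shifts in the results below was not tested. In RNA from a whole culture, a smaller share of cells that express a gene and less of its RNA per cell cannot be told apart.

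All 40 members with a probe set were bright enough to be tested. Values were taken as log2(intensity + 16) and compared with limma over 12960 genes, and a gene was called at an adjusted p under 0.05. On that test 5 members rose and none fell. The members that rose were SPCS2, SPCS3 and SEC11C of signal peptidase and TRAM1 and SSR3, which sit beside the channel. These 5 are 12.5% of the tested members, beside 9.41% of all genes called higher, and the count of 0 lower stands beside 6.60% of all genes called lower. The count of calls was thus close to the background. Without double knockdown replicate 1 or 2, which left 1 array in that group, fewer members and fewer of all genes were called. The members' median log2 change was then 0.09 and 0.06, beside 0.07 with all arrays. The count of members called higher was 10 with a pseudocount of 64 in place of 16, which also called SRP14 lower. The tested members had a median log2 change of 0.07 and all genes tested a median of -0.01. Both arrays labelled double knockdown lay above both control arrays for 21 members and below them for 13, and the groups overlapped for 6. Among all genes 28.1% lay above and 29.4% below in this way.

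**Figure D1:**
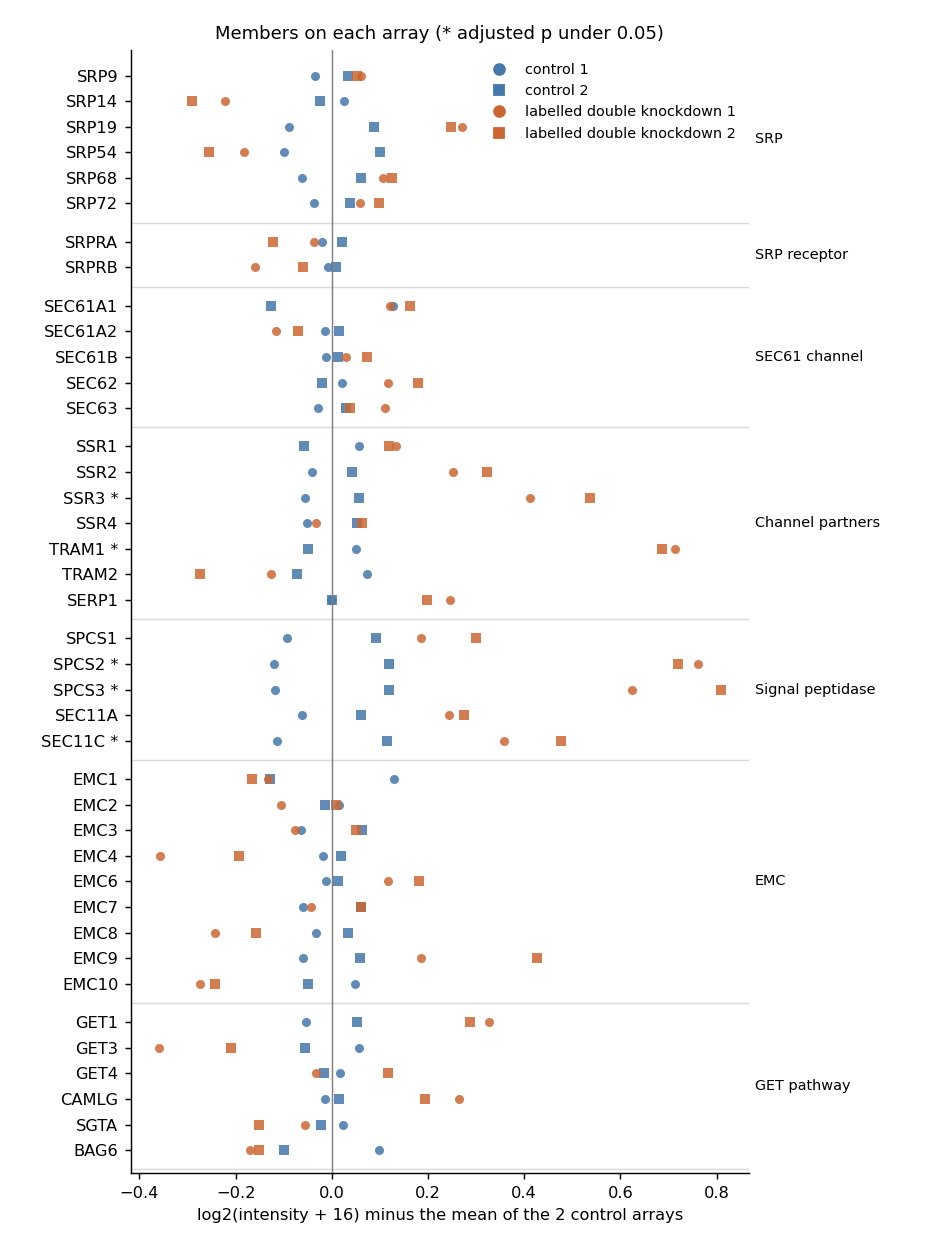
Each row is a tested member and each point is an array, placed at its log2(intensity + 16) minus the mean of the control arrays (n = 2 per group, circles replicate 1, squares replicate 2); stars mark the 5 members called higher. SPCS2, SPCS3 and TRAM1 stand farthest to the right, SSR3 and SEC11C follow, and no member is as far to the left.

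Signal peptidase was the class with the highest median, 0.42 on the log2 scale. It consists of a catalytic subunit, SEC11A or its close relative SEC11C, and the further subunits SPCS1, SPCS2 and SPCS3. Of the 5 members 3 rose, and for all 5 both arrays labelled double knockdown lay above both control arrays, beside 9.41% and 28.1% of all genes. SPCS2, an accessory subunit, read 2788 and 3295 on the control arrays and 5149.95 and 5000.4 on the arrays labelled double knockdown. Both latter values lay far above the control pair, whose own spread was wider than theirs. The mean went from 3042 ± 358 (SD, n = 2) to 5075 ± 106 (n = 2), a 1.67-fold rise (log2 change 0.74 ± 0.10 SE, adjusted p = 0.00388 by limma). SPCS3, a subunit that the complex needs for its activity, read 430 and 511 in the control, against 732 and 833 in the other group. The lower of the latter pair was still well above the higher control array. Its mean went from 471 ± 56.7 (SD, n = 2) to 782 ± 71.9 (n = 2), a 1.64-fold rise (log2 change 0.72 ± 0.11 SE, adjusted p = 0.00644 by limma). Without double knockdown replicate 2 SPCS3 lost its call (log2 change 0.62, adjusted p = 0.0581).

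Of the catalytic subunits 1 was called. SEC11C read 742 and 873 on the control arrays and 1036 and 1126 on the arrays labelled double knockdown. The groups did not overlap, but the gap between them was not much wider than the spread within the control pair. The mean went from 807 ± 92.6 (SD, n = 2) to 1081 ± 63.4 (n = 2), a 1.34-fold rise (log2 change 0.42 ± 0.11 SE, adjusted p = 0.0348 by limma). SEC11C lost this call without control replicate 1 (log2 change 0.30) and without double knockdown replicate 1 (0.48) or 2 (0.36). Each of these fits left 1 array in a group. SEC11A read 3208 and 3493 in the control, against 3967 and 4055 in the other group, a log2 change of 0.26 ± 0.09 SE that did not pass the test (adjusted p = 0.0890). The difference in response between SEC11A and SEC11C was not tested. SPCS1 read 3289.6 and 3740.2 in the control, against 3989 and 4320.4 in the other group (log2 change 0.24 ± 0.10 SE, adjusted p = 0.146).

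Beside the channel lie TRAM1, which contacts signal sequences as they enter, the 4 subunits SSR1 to SSR4 of the translocon-associated protein (TRAP) complex, and SERP1, also called RAMP4, which binds the channel and is known as a protein of stressed ER. Of the 7 members of this class 2 rose and none fell, beside 9.41% and 6.60% of all genes, with a median log2 change of 0.22. TRAM1 read 2646 and 2467 on the control arrays and 4200.3 and 4125 on the arrays labelled double knockdown. The arrays within each group were close to each other and the groups were far apart. The mean went from 2557 ± 127 (SD, n = 2) to 4162 ± 53.6 (n = 2), a 1.63-fold rise with the smallest p of all members (log2 change 0.70 ± 0.09 SE, adjusted p = 0.00233 by limma). Its relative TRAM2 did not follow: it read 129.8 and 115.9 in the control, against 111.0 and 98.6 in the other group (log2 change -0.20 ± 0.10 SE, adjusted p = 0.215).

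The TRAP subunits, which form 1 complex, had log2 changes from 0.01 to 0.47 on their brightest probe sets. Differences between the subunits were not tested. SSR3 read 2450.4 and 2649.7 on the control arrays and 3394 and 3701 on the arrays labelled double knockdown, with a clear gap between the groups. Its mean went from 2550.04 ± 141 (SD, n = 2) to 3548 ± 217 (n = 2), a 1.39-fold rise (log2 change 0.47 ± 0.09 SE, limma adjusted p = 0.0146). Without double knockdown replicate 1 or 2, SSR3 had log2 changes of 0.54 and 0.41. Its call was lost in both cases, with 1 array left in that group. SSR2 read 3923 and 4155 in the control, against 4811 and 5052 in the other group, also without overlap, and missed the threshold (log2 change 0.29 ± 0.09 SE, adjusted p = 0.0631). SSR1 had a log2 change of 0.13 ± 0.09 SE. SSR4 read 3217 and 3461 in the control, against 3259 and 3486 in the other group, which overlap almost fully (log2 change 0.01 ± 0.09 SE). SERP1 read 2537 and 2541 in the control, against 3014 and 2914 in the other group, a log2 change of 0.22 ± 0.08 SE that did not pass the test (adjusted p = 0.117).

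**Figure D2:**
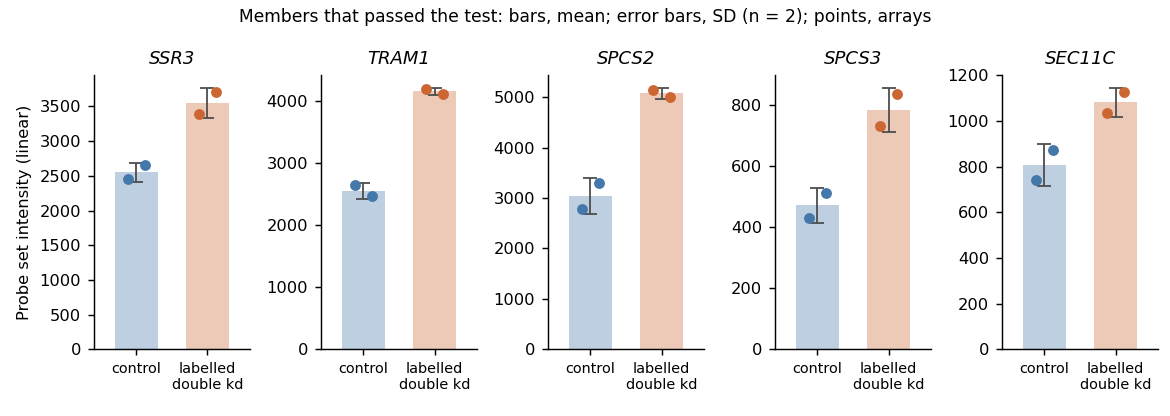
Linear probe set intensity (vertical axis, from 0) of the 5 members called higher in the 2 control arrays and the 2 arrays labelled double knockdown (kd, knockdown); bars are means, error bars the SD (n = 2) and points the arrays. In each panel both points of the second group lie above both control points, and SPCS2, TRAM1 and SPCS3 show the widest gaps.

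Promoters of the members were then read for short motifs bound by the transcription factors of ER stress, because these factors are known to act on this machinery. RefSeq promoter windows of the GRCh38.p14 build, 250 bases before to 50 after 1 annotated start per gene, were at hand for 36 of the 41 members and for 27305 genes in all, and they were searched on both strands. SPCS1, TRAM1, SRPRA, EMC2 and GET4 were not searched. The core letters of the XBP1 site, GCCACGT, stood in 7 of the 36 promoters (19.4%), beside 4.43% of 10443 promoters of tested genes and 3.30% of all promoters. Of the 4 called members with a window, SPCS2, SEC11C and SSR3 held it and SPCS3 did not. The other holders were SSR1, with 2 matches, and SEC63, SRP19 and SRPRB, none of them called. These promoters were picked for the match, and likeness beyond it was not searched for. The stretches around the matches are shown. They are written 5′ to 3′ on the strand of the gene, with the match, or its reverse complement, in capitals:
SPCS2: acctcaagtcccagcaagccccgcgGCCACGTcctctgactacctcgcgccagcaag
SEC11C: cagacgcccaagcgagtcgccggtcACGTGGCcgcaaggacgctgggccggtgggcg
SSR3: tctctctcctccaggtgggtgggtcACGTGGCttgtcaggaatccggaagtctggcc
SSR1: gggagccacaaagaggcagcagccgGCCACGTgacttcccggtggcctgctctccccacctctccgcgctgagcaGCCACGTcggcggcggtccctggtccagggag
SEC63: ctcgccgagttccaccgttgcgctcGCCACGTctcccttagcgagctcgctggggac
SRP19: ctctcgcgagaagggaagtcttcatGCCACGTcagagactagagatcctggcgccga
SRPRB: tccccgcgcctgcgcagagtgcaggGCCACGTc

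In GRCh38.p14 these stretches lie at chr11:74949122-74949178 on the plus strand for SPCS2, chr18:59139818-59139874 on the plus strand for SEC11C and chr3:156555298-156555354 on the minus strand for SSR3. Those of SSR1 and SEC63 lie on the minus strand at chr6:7313256-7313362 and chr6:107958250-107958306. Those of SRP19 and SRPRB lie on the plus strand at chr5:112861149-112861205 and chr3:133805782-133805814. All are upstream of the annotated start, with the first base of the match 119 bases before it in SPCS2, 41 in SEC11C, 212 in SSR3, 138 and 88 in SSR1, 73 in SEC63, 113 in SRP19 and 8 in SRPRB. A match is a description of letters and not a bound site.

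The longer ER stress element, ERSE, is known from the promoter of HSPA5, which encodes the ER chaperone BiP. It stood in 1 of the 36 members, SERP1, beside 0.134% of promoters of tested genes and 0.0806% of all promoters. The SERP1 stretch (chr3:150546685-150546746, minus strand), with the match on the opposite strand in capitals, is shown beside that of HSPA5 (chr9:125241366-125241434, minus strand):
SERP1: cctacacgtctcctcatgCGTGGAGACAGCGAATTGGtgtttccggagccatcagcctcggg
HSPA5: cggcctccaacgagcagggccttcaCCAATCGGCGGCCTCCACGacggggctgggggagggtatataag

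The second ER stress element, ERSE-II, stood in none of the members, beside 0.134% of promoters of tested genes. The letters TGACGTG, read by ATF6, stood in SRP19, where they overlap the XBP1 core, and in SEC62, together 5.56% of the members beside 2.42% of tested genes. The cyclic AMP element TGACGTCA stood in EMC10 alone, 3 times, beside 3.12% of tested genes. The letters TGATGNAA, read by ATF4, stood in SRPRB, beside 1.92%. Among tested genes outside the 41, those without a given motif were called higher in 9.20% to 9.53% of cases, whichever of the 6 motifs was taken. Of the genes with the XBP1 core, 16.4% of 456 were called higher, and with the ATF6 letters 15.1% of 251. ERSE and ERSE-II were held by few genes, of which 61.5% of 13 and 42.9% of 14 were called higher. The ERSE holders called higher include HSPA5 and XBP1. The share was 10.2% of 325 genes with the cyclic AMP element and 9% of 200 with the ATF4 letters. These shares were not tested.

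**Figure D3:**
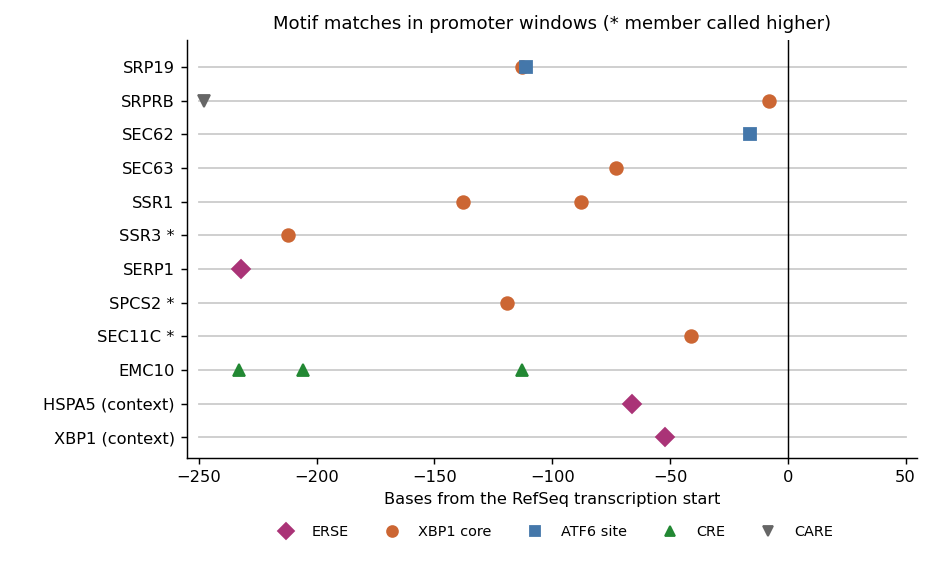
Position of each motif match (horizontal axis, bases from the RefSeq transcription start at 0) in the promoter windows of the 10 members that held any, with HSPA5 and XBP1 for comparison; stars mark members called higher. The XBP1 core occurs in SRP19, SRPRB, SEC63, SSR1, SSR3, SPCS2 and SEC11C, between 212 and 8 bases before the start.

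The upstream part of the route, SRP and its receptor, had no member that passed the test. SRP14, which with SRP9 binds the Alu end of the SRP RNA and slows translation, had the smallest p of the 6 SRP proteins. It read 3188 and 3077 on the control arrays and 2684 and 2558 on the arrays labelled double knockdown, without overlap (log2 change -0.26 ± 0.09 SE, adjusted p = 0.0840). SRP9, its partner, had a log2 change of 0.06 ± 0.08 SE. SRP54, the GTPase that binds the signal sequence, read 434 and 501 in the control, against 409 and 388 in the other group (log2 change -0.22 ± 0.10 SE, adjusted p = 0.182). SRP19, needed for assembly of the particle, went the opposite way, from 1056 and 1196 to 1359 and 1337 (log2 change 0.26 ± 0.09 SE, adjusted p = 0.106). SRP68 and SRP72, which bind the RNA as a pair, had log2 changes of 0.12 and 0.08. Of the receptor subunits, SRPRB, which anchors the receptor in the membrane, had the smaller p. It read 528 and 535 on the control arrays and 475 and 509.6 on the arrays labelled double knockdown (log2 change -0.11 ± 0.09 SE, adjusted p = 0.454 by limma). SRPRA, which meets SRP54, had a log2 change of -0.08 (adjusted p = 0.596 by limma). For neither of these did the groups overlap, yet the gap was smaller than the spread between the arrays labelled double knockdown.

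The channel itself also had no call among its 5 tested members, at a median log2 change of 0.07. SEC62, which assists chains that arrive after synthesis, had the smallest p. It read 680.2 and 660.3 in the control, against 728 and 761 in the other group (log2 change 0.15 ± 0.09 SE, adjusted p = 0.295). SEC61A1, which forms the pore, read 463 and 386 on the control arrays and 461 and 475 on the others, so that 1 control array lay among the arrays labelled double knockdown (log2 change 0.14 ± 0.11 SE, adjusted p = 0.424). SEC61B had a log2 change of 0.05, SEC63, which recruits BiP to the channel, of 0.07, and SEC61A2, a dimmer relative of SEC61A1 with a mean of 40.2, of -0.09.

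Of the 9 EMC subunits none passed the test, and the median log2 change was -0.05. EMC4 read 1685 and 1729 on the control arrays and 1329 and 1489.8 on the arrays labelled double knockdown (log2 change -0.28 ± 0.09 SE, adjusted p = 0.0863). EMC10 read 191 and 178 in the control, against 149.8 and 153 in the other group (log2 change -0.26 ± 0.09 SE, adjusted p = 0.0851, the smallest p of the complex). EMC9, a relative of EMC8 that takes the same place in the complex, read 202 and 221 in the control, against 242 and 289.6 in the other group (log2 change 0.31 ± 0.11 SE, adjusted p = 0.0961). EMC8 itself went from 582 and 609.7 to 500.4 and 532 (log2 change -0.20 ± 0.09 SE, adjusted p = 0.166). The remaining subunits had log2 changes of -0.15 for EMC1, -0.05 for EMC2, -0.01 for EMC3, 0.15 for EMC6 and 0.01 for EMC7. The groups overlapped for EMC2, EMC3 and EMC7.

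None of the 6 GET genes passed the test, and their median log2 change was -0.03. GET1, a subunit of the membrane receptor, came closest. It read 947 and 1021 on the control arrays and 1237 and 1204 on the arrays labelled double knockdown, without overlap (log2 change 0.31 ± 0.09 SE, adjusted p = 0.0518). CAMLG, the other receptor subunit, read 2619 and 2671 in the control, against 3180.4 and 3029 in the other group (log2 change 0.23 ± 0.09 SE, adjusted p = 0.111). The soluble GET3, the ATPase that carries the tail anchor to this receptor, had the lowest log2 change of all members. It read 302 and 278 in the control, against 223 and 249 in the other group (log2 change -0.28 ± 0.10 SE, adjusted p = 0.0848). BAG6 and SGTA, which hand tail-anchored proteins to GET3, had log2 changes of -0.16 and -0.10, and GET4, their link to it, of 0.04.

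**Figure D4:**
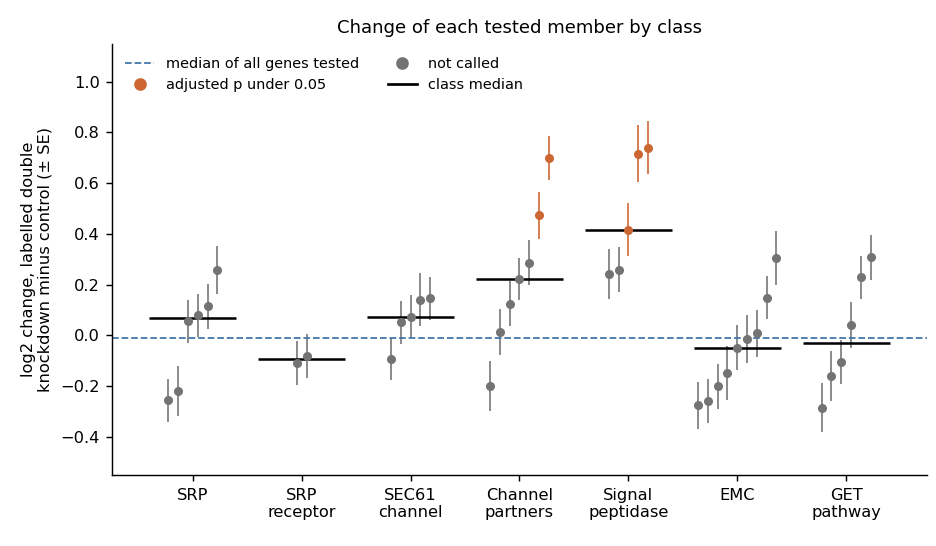
Log2 change (labelled double knockdown minus control, ± SE, n = 2 per group) of each tested member by class; black bars are class medians and the dashed line is the median of all genes tested. Signal peptidase has the highest class median, 0.42, followed by the channel partners at 0.22, and the other class medians lie between -0.09 and 0.07.

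Ordered by change, the members formed a series with uneven steps. SPCS2, SPCS3 and TRAM1 led with 0.74, 0.72 and 0.70, and SSR3 followed with 0.47. Of 39 pairs of neighbours, only the step from TRAM1 to SSR3 (0.23) exceeded the combined SE of the pair (0.13). This step is the largest of the 39 and was not tested. Neighbours in a sorted list lie close together, so the order of neighbours is not resolved. The gaps do not bear on members farther apart in the order. Between the called and the uncalled members, SEC11C at 0.42 was followed by GET1 and EMC9 at 0.31 each. A further 12 members had an adjusted p between 0.05 and 0.15, 8 of them with a higher and 4 with a lower mean on the arrays labelled double knockdown.

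Many members were read by more than 1 probe set, which measure the same RNA extract at other places of the transcript. The 40 members had 97 probe sets in all. In a fit over all probe sets without a brightness filter, 8 further probe sets above the minimum belonged to 4 of the called members, and 7 of these had the same sign as the brightest. TRAM1 had log2 changes of 0.84 ± 0.05 SE and 0.73 ± 0.09 SE on its further probe sets, beside 0.70 on the brightest (unadjusted p = 3.25e-05 and 0.000961 by limma). For the brightest TRAM1 probe set the SE was 0.054 in this fit and 0.087 in the fit over genes. The SEs of these fits therefore cannot be set side by side. The further probe set of SPCS2 above the minimum had a log2 change of 0.77 ± 0.09 SE (unadjusted p = 0.000773 by limma), and those of SPCS3 had 0.35 ± 0.05 SE and 0.81 ± 0.14 SE. SSR3 was uneven: its further probe sets had log2 changes of 0.41 ± 0.05 SE, -0.06 ± 0.15 SE and 0.10 ± 0.09 SE. The mean over its probe sets gave SSR3 a log2 change of 0.23 (adjusted p = 0.0538 by limma). Of the 5 called members 4, all but SEC11C, rest on a probe set of a type that can match several transcripts.

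For some uncalled members the choice of probe set mattered as well. SERP1 had a log2 change of 0.22 on its brightest probe set. On the next 2 it read 671 and 561, and 526 and 467, on the control arrays, and 993 and 921, and 794 and 719, on the arrays labelled double knockdown. These are log2 changes of 0.63 ± 0.10 SE and 0.59 ± 0.08 SE (adjusted p = 0.0644 and 0.0529 over all probe sets by limma), and its dimmest probe set had -0.11. Adjusted in the same way by limma, the brightest probe sets of SSR3, SPCS3 and SEC11C also missed 0.05 (adjusted p = 0.0559, 0.0596 and 0.121). Those of TRAM1 and SPCS2 passed (adjusted p = 0.0218 and 0.0444 by limma). SERP1 was called higher with the mean of its probe sets (log2 change 0.33, adjusted p = 0.0230 by limma). It was also called once probe sets of the type that may read more than 1 transcript were dropped, where the probe set at 0.63 stood for it (adjusted p = 0.00556 by limma). On its brightest probe set it was called with a pseudocount of 64 (adjusted p = 0.0431) and with an intensity trend in the variance prior (adjusted p = 0.0479), and in the other alternatives it was not called. SEC63 had log2 changes of 0.30 ± 0.05 SE and 0.77 ± 0.14 SE on 2 dim probe sets, with means of 57.8 and 36.4, and of -0.16 ± 0.18 SE on another. SSR1 ranged from -0.12 to 0.46 over its 6 probe sets, and the 2 probe sets of SEC11A were alike at 0.26 and 0.31. Further probe sets went against the brightest in SEC62 (-0.25 ± 0.16 SE beside 0.15), SRP72 (-0.26 ± 0.08 SE beside 0.08) and EMC3 (0.28 ± 0.06 SE beside -0.01). The other further probe sets above the minimum had 0.07 to 0.24 for SEC62 and -0.06 to 0.12 for SRP72.

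**Figure D5:**
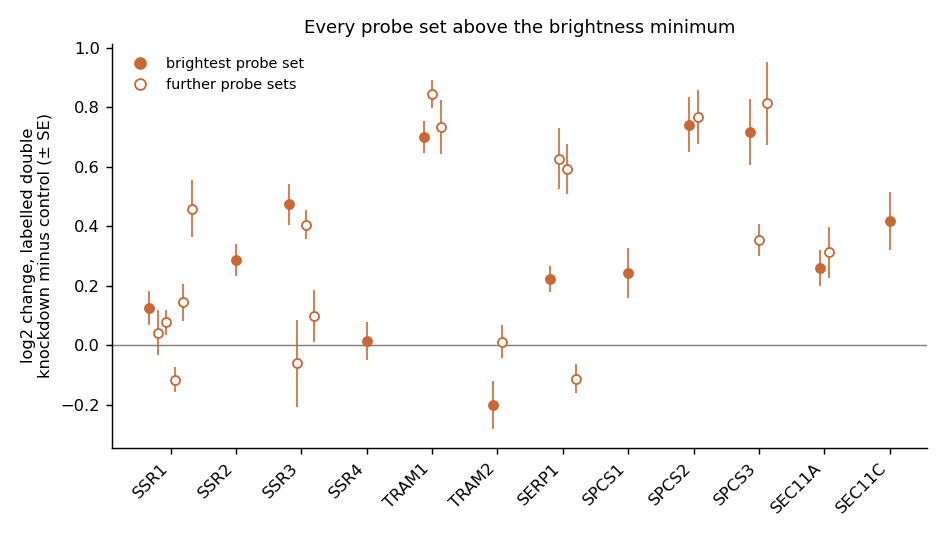
Log2 change (labelled double knockdown minus control, ± SE, n = 2 per group) on every probe set above the brightness minimum of the channel partners and signal peptidase; filled points are the brightest probe set of a gene and open points the further ones. The probe sets of TRAM1 and SPCS2 lie together, those of SSR3 and SSR1 are spread out, and 2 open points of SERP1 lie above its filled one. The SEs come from the fit over all probe sets and cannot be set beside those of the fit over genes.

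Genes that work with these members were read from a separate list of 40, of which 36 could be tested. Of these, 6 rose and 1 fell, beside the 9.41% and 6.60% of all genes, and their median log2 change was 0.11. The chaperones that pull chains through the channel from the lumenal side had the largest rises: HSPA5 read 2479 and 1989 on the control arrays and 8849 and 8065 on the arrays labelled double knockdown (log2 change 1.92 ± 0.12 SE), and HYOU1, its exchange factor, had a log2 change of 1.31 ± 0.21 SE. SIL1, another exchange factor, and DNAJC1, a membrane cochaperone, had 0.08 and 0.11 and were not called. Of 12 subunits of oligosaccharyltransferase, the enzyme that adds N-glycans beside the channel, 3 rose: OSTC (log2 change 0.71), RPN1 (0.56) and MAGT1 (0.32). Its catalytic subunits STT3A and STT3B had 0.17 and 0.12 and were not called. KTN1, a protein of rough ER membranes, rose by 0.36 on the log2 scale. The gene that fell was UBQLN2, a ubiquilin that binds membrane proteins in the cytosol, which dropped by 0.49. The 6 tested genes of the multipass translocon, a partner of SEC61 for proteins with many membrane segments, had no call and a median of 0.05. NACA and BTF3, which compete with SRP at the ribosome, had log2 changes of -0.23 and -0.16, and MMGT1, a further EMC subunit, had -0.25, none of them called. XBP1, named for its role above, rose from 305 and 277 to 581 and 635 (log2 change 1.02 ± 0.09 SE, adjusted p = 0.000634 by limma), and DDIT3, the stress factor CHOP, had a log2 change of 3.02. On their brightest probe sets the channel partners and signal peptidase had log2 changes of at most 0.74, on arrays where HSPA5 had 1.92; the highest on a further bright probe set was the 0.84 of TRAM1.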

How the data were processed

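The deposited table holds intensities of probe sets on a linear scale, which was judged from the size of the values. The authors' summary and normalization steps are not given in the sources, and scanner values were not analysed here. No further normalization was applied. Of 54675 probe sets, 62 controls were left out, 41091 named 1 gene, 1801 several and 11721 none. For 41037 of the single-gene probe sets the gene identifier was found in RefSeq (GRCh38.p14), which gave the current symbol. The probe set with the highest mean stood for its gene, and the 12960 genes whose mean reached the median of 14.6 were tested. Fold changes are of intensity + 16, the pseudocount, and understate changes of dim genes.

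Groups were taken from the sample titles. The test was that of limma 3.58.1 (lmFit, eBayes, two-sided, no covariate, 4 arrays) under R 4.3.3, adjusted by the Benjamini-Hochberg method over all genes tested. An exact permutation test of 2 against 2 arrays cannot go below p = 0.333. The script was tested on simulated data. The members, lists, motifs and alternatives were chosen with earlier results of these data known. Every member is named. Called members, and in each class without a call the member with the smallest p, have values on each array. The alternatives were pseudocounts, brightness filters, normalizations, probe set choices, leaving out each array, a replicate block and an intensity trend. The number of arrays limits the precision.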

Additional observations from a re-analysis of the deposited data

How the results depend on the processing

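With 2 arrays per group, small changes can be missed, and most calls near the threshold moved with the setting. Over the 15 alternatives TRAM1 was called in all 15 and SPCS2 in all 14 that tested it, SPCS3 in 14, SSR3 in 11 and SEC11C in 9. SPCS2 was not tested once probe sets that may match more than 1 transcript were dropped, because its probe sets above the minimum are all of that type. Members called higher numbered 10 with a pseudocount of 64 or an intensity trend in the variance prior and 8 with cyclic loess normalization, which gave a median log2 change of 0.10. Members called lower numbered 1 with a pseudocount of 64 or the intensity trend (SRP14) and 2 with probe sets averaged per gene (SRP14 and EMC4). GET1 was called in 8 alternatives. The replicate block gave 8 members called higher, with SSR2, GET1 and EMC9 gained (adjusted p = 0.0486, 0.0493 and 0.0476 by limma). Arrays with the same number had deviations that correlated at 0.24 across genes. The labels state no pairing, and with 2 numbers it is not settled whether the arrays are paired. Leaving out each array in turn gave 537 to 2000 genes called in all, 2 to 5 members called higher, the lowest without double knockdown replicate 2 and 3 without double knockdown replicate 1. SSR3 had a log2 change of 0.10 (adjusted p = 0.592) when probe sets that may match more than 1 transcript were dropped. SEC11C had adjusted p = 0.0684 with a pseudocount of 1, 0.0808 without a brightness filter and 0.0693 with the mean of its probe sets. Signs turned only for uncalled members with changes near 0. EMC3 had 0.0018 with quantile and 0.020 with cyclic loess normalization and 0.078 with the mean of probe sets, where SRP72 had -0.0043 and EMC7 -0.033. With each array left out in turn, EMC3 ran from -0.076 to 0.051, SSR4 from -0.038 to 0.067, EMC7 from -0.051 to 0.068, EMC2 from -0.106 to 0.0092 and GET4 from -0.032 to 0.116. Except for the probe set choices, which read other probes, the cause of these shifts was not tested.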
